A study of Homo sapiens with 2 samples.

Results

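Matrix metalloproteinases (MMPs) were followed as transcripts in single cells of HT1080, a human fibrosarcoma line that invades collagen. The 9 genes described are MMP1, MMP2, MMP9, MMP14, MMP15, MMP16, MMP17, MMP19 and MMP24, chosen by symbol from the 36601 genes listed, and all 9 were found once in the files. Wild-type HT1080 spheroids of 2000 cells were embedded, about 50 to a sample, in 500 µl of collagen for 72 h. The control culture was labelled only as control, and the 4B4 culture was kept with 2 µg/ml of 4B4, an antibody that blocks β1 integrin. No antibody is named for the control, so blocking and adding an antibody cannot be told apart. Gels were opened with 2 mg/ml collagenase and the cells released in 0.25% trypsin.

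Each group is 1 library, so differences between libraries have no replicate check, and no test or p-value was computed. Intervals are 95% counting intervals (exact Poisson for levels, Clopper-Pearson for shares and ratios). They cover counting error only, not the spread between cultures. After barcodes with under 1000 genes or over 20% mitochondrial transcripts were left out, 3402 control cells with 127218114 unique molecular identifiers (UMIs) and 1385 4B4 cells with 116451080 UMIs remained. The median 4B4 cell held 2.08 times the UMIs of the median control cell (68556 against 32914), and 2 barcodes occurred in both libraries. Of 8 HT1080 markers 7 reached 5 UMIs per 1000000, of which CDH2 was the lowest, at 47.1 in control and 32.6 in 4B4. Of 15 markers of epithelial, endothelial and blood cells only PECAM1 (30.3 and 45.8), CD68 (26.5 and 38.4) and CLDN4 (11.2 and 13.8) reached 5. The others ran from KRT5, at 0 in both, to EPCAM, at 2.00 and 1.66, with the endothelial VWF at 1.71 and 1.58, CDH5 at 0.54 and 0.29, and the leukocyte PTPRC at 0.79 and 0.80. The levels of PECAM1 (1.51-fold), CD68 (1.45-fold) and CLDN4 (1.23-fold) were greater in 4B4, as that of MMP14 was. Of these markers only PECAM1 reached the 1.5-fold bound used below. Their part in the results was not tested.

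MMPs are zinc-dependent endopeptidases that cut collagen and other matrix and surface proteins. They are made as inactive zymogens. MMP14, a transmembrane member activated by furin-type proteases, cuts fibrillar collagen at the cell surface and is known for its part in collagen invasion by HT1080. On the surface MMP14, with TIMP2 bridging, binds and activates the secreted zymogen of the gelatinase MMP2, so that the 3 proteins work as a unit.

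Levels are UMIs per 1000000 library UMIs (UPM). The assay tags the 3′ end of a molecule and values were not divided by gene length, so levels are compared between libraries or cells for a gene and not ranked between genes. A gene at 5 UPM or more in either library counted as measured. It was called higher or lower when the 4B4 to control ratio was 1.5-fold or more in that direction and its interval left out 1. Of 11359 measured genes 2.10% were called higher and 5.82% lower in 4B4, and the median log2 ratio of all of them was -0.0089. Of the 9 MMPs 5 were measured, of which MMP14 was called higher and 0 were called lower. That 1 call of 5 is not read as a property of the group, whose median log2 ratio was -0.0054.

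MMP14 (chr14:22836557-22849027, plus strand, GRCh38, GENCODE release 29) is a compact gene of 12.5 kb. The bases upstream of it are shown because MMP14 is the member that was called. They come from the RefSeq table on GRCh38.p14, chr14:22836335-22836556, plus strand, ending 1 base before the first annotated GENCODE exon. Capitals mark a GC box, a motif bound by SP1 family factors.
MMP14: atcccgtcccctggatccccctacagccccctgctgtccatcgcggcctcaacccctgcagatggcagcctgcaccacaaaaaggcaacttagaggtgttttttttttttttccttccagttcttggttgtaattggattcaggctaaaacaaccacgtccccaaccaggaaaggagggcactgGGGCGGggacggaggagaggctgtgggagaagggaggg
The window held 1 match to GGGCGG on either strand, 66 to 61 bases before the RefSeq start. Within 250 bases before the start there was 1 E-box (CANNTG), outside the GC box, and no match to the AP-1 letters TGANTCA or the TEAD letters GGAATG, all searched on both strands. Of all 35116 such windows, 42.6% held the GC box, 61.8% the E-box, 6.57% the AP-1 letters and 11.9% the TEAD letters. Promoters of 3 of the 9 members were in the table. That of MMP15 held 5 GC boxes and that of MMP24 held 3, again with no AP-1 or TEAD match. Both windows were the 250 bases before the RefSeq start and were not cut at the GENCODE start. The MMP15 window ends at base 58025753, past the GENCODE start at 58025566. Only its box farthest upstream lies before that start, and the others lie inside the annotated gene. The MMP24 window also runs past its GENCODE start at 35226654, but its boxes lie before it. These matches are descriptions of letters and not of bound sites.

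MMP14 was at 40.4 UPM in the control library (39.3 to 41.5, 5143 UMIs) and at 61.8 UPM in the 4B4 library (60.4 to 63.3, 7201 UMIs). The 4B4 level was 1.53-fold the control level (log2 0.61, 0.56 to 0.67). This is just past the 1.5-fold bound, and the call was lost when the library total left out mitochondrial genes (log2 0.58) and in G1 cells (log2 0.54). Per cell the mean was 1.51 UMIs in control and 5.20 in 4B4, a wider gap, as the median 4B4 cell also held more UMIs in all.

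MMP2, the gelatinase that MMP14 activates (chr16:55389700-55506691, plus strand), did not differ between the libraries beyond counting error over all kept cells. It was at 39.6 UPM in control (38.5 to 40.7, 5042 UMIs) and 39.5 UPM in 4B4 (38.4 to 40.6, 4598 UMIs). The log2 ratio was -0.0054 (-0.063 to 0.053), an interval that lies wholly below that of MMP14. The ratio of MMP2 ranged from -0.064 to 0.13 over 12 other ways of counting and was called under none of them. The 0.13 came from cells of 20000 to 60000 UMIs, where the interval (0.024 to 0.23) left out 0.

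Over all kept cells the membrane-type members MMP16, MMP17 and MMP24 were not called. MMP16, a transmembrane relative of MMP14, was at 32.4 UPM in control (4119 UMIs) and 32.1 in 4B4 (3743 UMIs; log2 -0.011, -0.075 to 0.054). MMP17, which is held in the membrane by a lipid anchor (chr12:131828393-131851783, plus strand), was at 9.11 and 11.5 UPM (log2 0.34, 0.23 to 0.45). Its counting interval lay above 0, but the ratio fell short of the bound, and over 9 other ways of counting it ran from 0.15 in cells at equal depth (-0.084 to 0.38) to 0.46 with a stricter cell filter (0.32 to 0.60), with a call in none. MMP24, another transmembrane member (chr20:35226654-35277000, plus strand), was at 7.69 and 7.21 UPM (log2 -0.092, -0.23 to 0.043). The whole of MMP24 lies inside MMP24OS, a gene on the opposite strand at 62.3 UPM in control and 74.9 in 4B4. Whether counting used strand is not given in the sources used here, so the MMP24 values are uncertain.

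The remaining 4 members stayed under 5 UPM in both libraries and were not eligible for a call. The gelatinase MMP9 (chr20:46008908-46016561, plus strand) was at 3.45 UPM in control (439 UMIs) and 2.78 in 4B4 (324 UMIs; log2 -0.31, -0.52 to -0.10). MMP15, a transmembrane member (chr16:58025566-58046901, plus strand), was at 3.01 and 3.56 UPM (log2 0.24, 0.039 to 0.45). MMP19, a secreted member (chr12:55835433-55842966, minus strand), was at 2.82 and 2.10 UPM (log2 -0.42, -0.66 to -0.19). The interstitial collagenase MMP1 (chr11:102789920-102798160, minus strand) was at 0.93 UPM in control (118 UMIs) and 1.97 in 4B4 (229 UMIs), a 2.12-fold ratio (log2 1.08, 0.76 to 1.42). Those MMP1 counts came from few cells: 1% of the cells held 68.6% of the control UMIs and 66.8% of the 4B4 UMIs, and 2 of the 4B4 cells alone held 63 of the 229. The other 14 MMP family genes in the list were each under 5 UPM and together summed to 4.91 UPM in control and 3.91 in 4B4. Among them MMP3, the stromelysin, was at 1.09 and 0.88 UPM, and MMP8 and MMP27 had at most 1 UMI in either library.

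**Figure D1:**
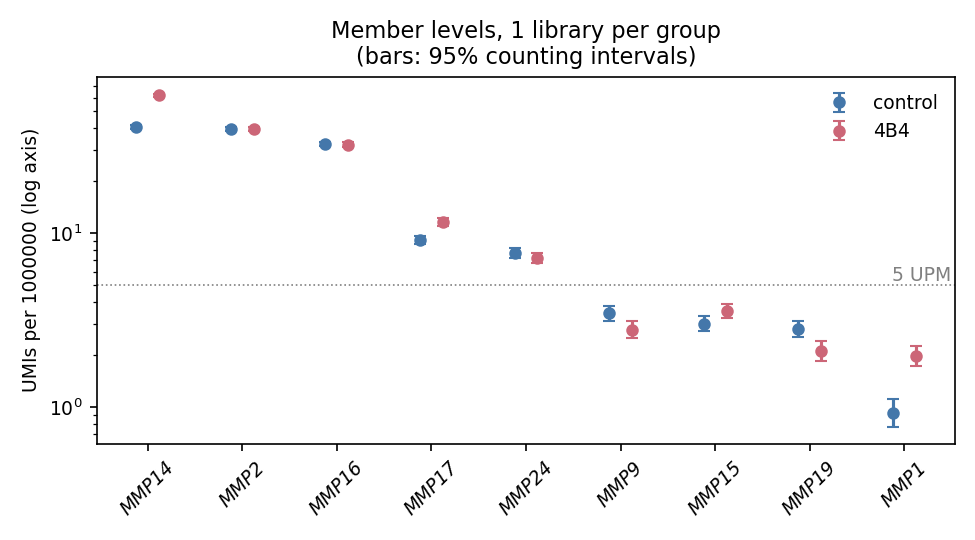
Levels of the 9 MMPs in UMIs per 1000000 library UMIs (log axis) in the control and 4B4 libraries, 1 library each, with 95% Poisson counting intervals; the dotted line is the 5 UPM bound. MMP14 stands at 40.4 in control and 61.8 in 4B4, while MMP2 and MMP16 nearly coincide.

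Of all UMIs of the 9 members, MMP14 supplied 28.99% in control (5143 of 17740, interval 28.3 to 29.7) and 38.0% in 4B4 (7201 of 18938, 37.3 to 38.7). MMP2 supplied 28.4% and 24.3%, and MMP16 23.2% and 19.8%. Members anchored in the membrane (MMP14, MMP15, MMP16, MMP17 and MMP24) made up 66.4% and 71.5%. These are shares of counted tags, uncorrected for how well each transcript is captured.

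To compare shares of cells across the depth gap, each cell was thinned to 17000 UMIs, which left out 303 control and 74 4B4 cells as too shallow and kept 3099 and 1311. At that depth 46.3% of the control library's cells had an MMP14 UMI (44.5 to 48.05), as did 59.95% of the 4B4 library's cells (57.2 to 62.6). Without thinning the shares were 66.6% and 88.3%. MMP2 was detected in 44.1% and 45.8% of thinned cells (63.2% and 77.9% without thinning), so most of its unthinned gap did not remain at equal depth. MMP16 was detected in 31.1% and 30.1% (45.7% and 57.6% without thinning).
MMP17 was found in 14.1% and 15.5% of thinned cells (26.0% and 49.7% unthinned), and MMP24 in 12.6% and 11.7% (23.1% and 38.8% unthinned). The 4 low members were each found in under 7% of thinned cells. Of these, MMP15 was at 4.84% and 6.41%, MMP9 at 4.42% and 3.66%, MMP19 at 4.87% and 2.97%, and MMP1 at 1.00% and 1.75% (9.85% and 22.8%, 8.32% and 15.4%, 9.52% and 15.1%, and 2.12% and 5.70% unthinned). Both samples are 1 cell line, so no cell type lacking these genes was at hand to measure free RNA, and its part in the low shares was not tested.

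The MMP14 counts of 4B4 cells were shifted up over the whole distribution. At 17000 UMIs per cell 53.7% of control and 40.05% of 4B4 cells had 0 MMP14 UMIs, and 5.29% and 12.7% had 3 or more. For MMP2 5.78% and 6.03% of cells had 3 or more. The highest count in an unthinned cell was 16 MMP14 UMIs in control and 66 in 4B4. Leaving out the 1% of cells with the most MMP14 left the log2 ratio at 0.61.

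**Figure D2:**
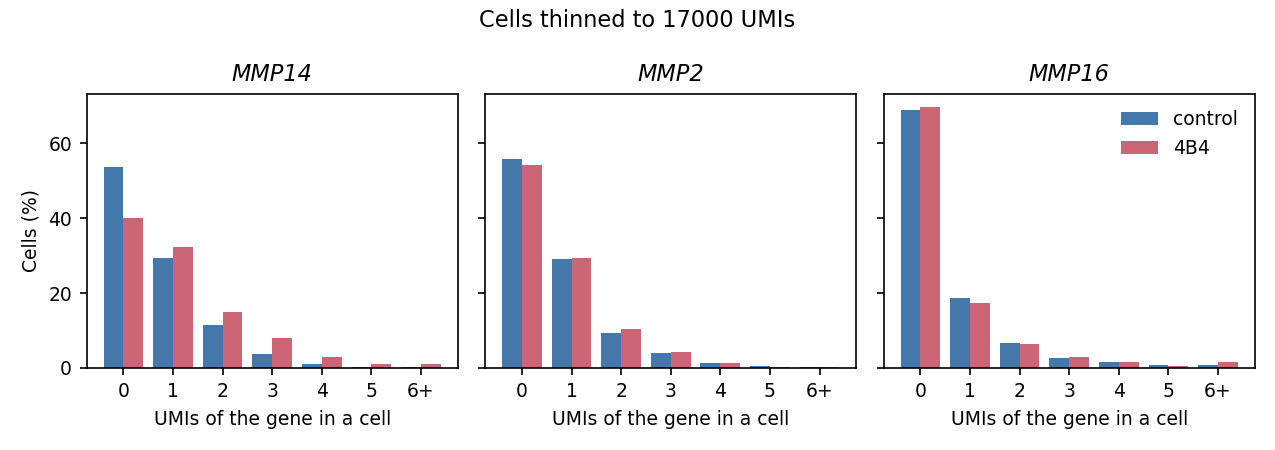
Percent of cells by number of UMIs of MMP14, MMP2 and MMP16 per cell after thinning to 17000 UMIs, for 3099 control and 1311 4B4 cells. Cells with 0 MMP14 UMIs made up 53.7% of control and 40.05% of 4B4 cells, while the MMP2 and MMP16 distributions of the libraries lie close together.

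Cell-to-cell spread was measured as the squared coefficient of variation beyond what counting alone gives, at equal depth. It was 0.44 in control and 0.53 in 4B4 for MMP14, and 0.59 and 0.55 for MMP2, against medians of 0.23 and 0.26 over all genes at 20 UPM or more. Of those genes, 28.4% and 28.9% exceeded MMP14, and 20.01% and 27.9% exceeded MMP2. MMP16 varied far more, at 2.52 and 3.54, exceeded by 2.00% and 1.88% of genes. Cells with 6 or more MMP16 UMIs at equal depth numbered 27 of 3099 in control and 22 of 1311 in 4B4.

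MMP14 and MMP2 were detected together about as often as their separate shares give. In control 679 of 3099 cells (21.9%, 20.5 to 23.4) held both, against 20.4% from the product of the 2 shares, a ratio of 1.07 (1.00 to 1.15). In 4B4 377 of 1311 cells (28.8%, 26.3 to 31.3) held both, against 27.4%, a ratio of 1.05 (0.96 to 1.14). The intervals of both ratios take the product as fixed, though it comes from the same cells. Among control cells MMP14 was found in 49.7% of those with MMP2 (47.0 to 52.4) and 43.6% of those without (41.2 to 46.0). Those intervals do not overlap. Among 4B4 cells MMP14 was found in 62.8% (58.8 to 66.7) and 57.5% (53.8 to 61.2), where the intervals overlap. The share of cells with both was therefore higher in 4B4 along with the share with MMP14 itself.

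TIMP2, which bridges the pair, was detected in 83.4% of control and 86.1% of 4B4 thinned cells. All 3 transcripts were detected in 18.5% of control cells (574, interval 17.2 to 19.9) and 25.3% of 4B4 cells (332, 23.0 to 27.8). MMP14 by itself was detected in 46.3% and 59.95% of these cells, so the higher share with all 3 is not read as closer joint detection. Pearson's r of MMP14 with MMP2 across thinned cells was 0.066 in 3099 control cells and 0.074 in 1311 4B4 cells. Of 6200 genes at 20 UPM or more in both libraries, 446 and 385 correlated more strongly with MMP14. The counts are sparse and these weak values are given as a description.

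Among the 10 pairs of the 5 measured members, the ratio of joint detection to the product ran from 0.96 to 1.08 in control and from 0.93 to 1.18 in 4B4. The MMP14 and MMP2 pair in control was the one interval of the 20 that lay above 1, and with another thinning seed it reached below 1 (ratio 1.05, 0.98 to 1.13). Because these intervals take the product as known, crossing 1 does not decide whether the genes of a pair go together. Cells with 0 of the 5 detected were 16.9% of control and 12.2% of 4B4 cells, and cells with 3 or more were 15.3% and 17.8%.

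**Figure D3:**
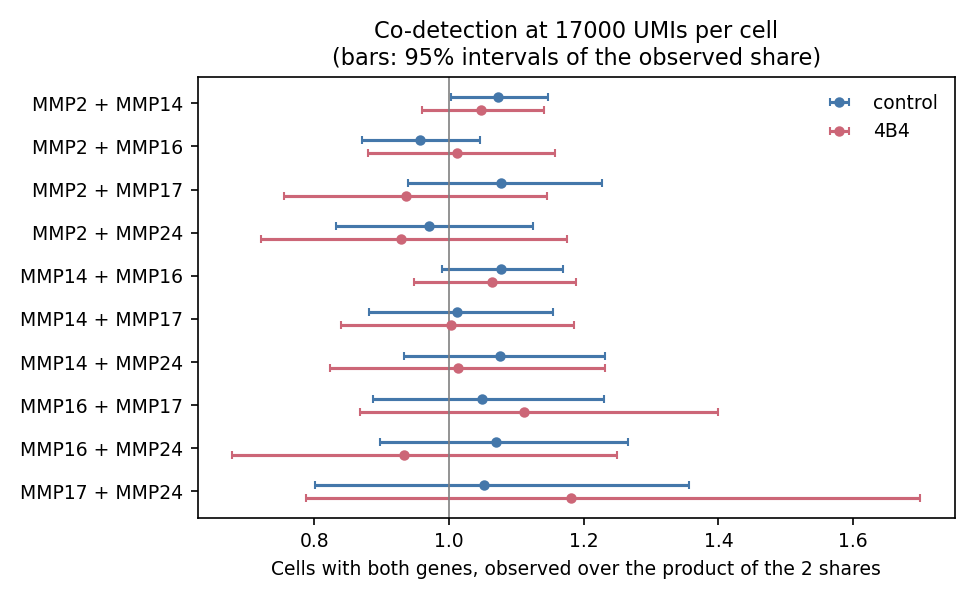
Cells in which both genes of a pair were detected at 17000 UMIs per cell, divided by the product of the 2 genes' shares, for the 10 pairs of measured MMPs in each library, with 95% intervals of the observed share. Ratios lie between 0.93 and 1.18, and the MMP2 and MMP14 ratio is 1.07 in control and 1.05 in 4B4.

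The MMP14 difference was present within all 14 groups of cells made by phase, depth, mitochondrial share and MALAT1 level. Cells were grouped among those with 17000 or more UMIs. By cell cycle phase, scored from S and G2M genes, MMP14 was at 42.9 UPM in control and 62.4 in 4B4 G1 cells (1.46-fold), 38.5 and 60.1 in S cells (1.56-fold), and 34.6 and 55.8 in G2M cells (1.61-fold). G1 cells were 66.6% of control and 87.0% of 4B4 cells. With the 3 phases weighing the same in both libraries, an alternative added after the data were seen, the log2 ratio was 0.62.

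By depth, the ratio was 1.57, 1.54, 1.53 and 1.67-fold in cells of 25000 to 40000, 40000 to 60000, 60000 to 80000 and 80000 or more UMIs. In the band of 17000 to 25000 UMIs it was 3.16-fold, but that rests on 24 4B4 cells with 69 MMP14 UMIs. In cells with up to 10% mitochondrial UMIs it was 1.60-fold and in those above 10% it was 1.44-fold.

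**Figure D4:**
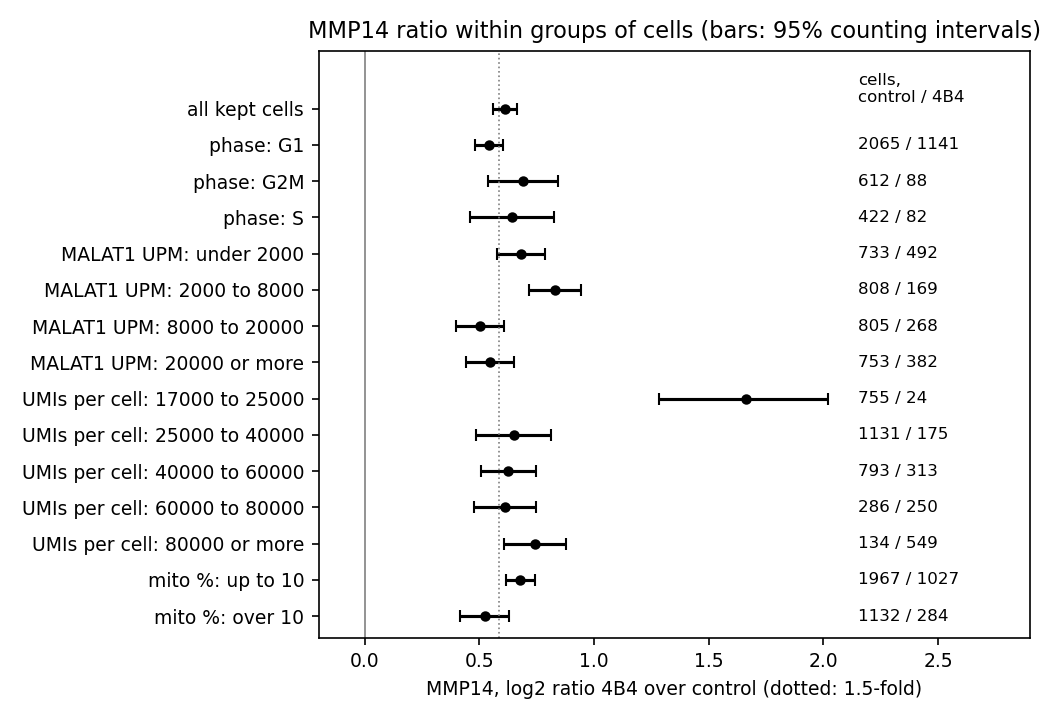
Log2 ratio of the MMP14 level, 4B4 over control, in all kept cells and within cells grouped by phase, by MALAT1 level, by UMIs per cell and by mitochondrial percent, with 95% counting intervals and the number of control and 4B4 cells; the dotted line is 1.5-fold. All 14 groups lie above 0, and the band of 17000 to 25000 UMIs, with 24 4B4 cells, lies farthest out.

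Cells also differed widely in MALAT1, an abundant RNA that stays in the nucleus. From cells under 2000 MALAT1 UPM to cells of 20000 or more, MMP16 went from 9.53 to 54.3 UPM in control (5.69-fold) and from 7.03 to 70.7 UPM in 4B4 (10.1-fold). MMP2 did not follow MALAT1, at 39.5 and 39.5 UPM in control and 38.7 and 39.3 in 4B4. MMP14 went from 34.9 to 46.9 UPM in control (1.34-fold) and from 56.0 to 68.5 in 4B4 (1.22-fold). MMP24 was 1.70-fold and 1.48-fold as high in the MALAT1-rich cells, and MMP9 was at 0.49 and 0.54 times its level in the MALAT1-poor cells.

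Long genes as a group shared the pattern of MMP16, which spans 296 kb with 4.09% of it in exons. Over genes at 20 UPM or more, the median log2 ratio of MALAT1-rich to MALAT1-poor cells was 1.83 in control and 2.43 in 4B4 for spans of 200 kb or more, and -0.45 and -0.61 for spans under 20 kb. MMP16 was at 2.51 and 3.33 on that scale. MMP14, with its 12.5 kb, was at 0.43 and 0.29, above the upper quartile of the short genes in both libraries (-0.15 and -0.20). MMP2 spans 117 kb over all its transcripts and was at -0.0012 and 0.024. That is below the lower quartile of the genes of 100 to 200 kb (0.76 and 1.00). It is inside the quartiles of the genes of 20 to 100 kb (-0.19 to 0.82 in control and -0.17 to 0.99 in 4B4). Where MMP2 stands therefore depends on the span given to it. Whether reads in introns were counted is not given in the sources used here, and the part of nuclear RNA in the MMP16 spread was not tested. Within the 4 MALAT1 bands, from poor to rich, the 4B4 to control ratio of MMP14 was 1.60, 1.78, 1.42 and 1.46-fold. The MMP16 ratio was 0.74, 0.77, 0.99 and 1.30-fold over the same bands, so its level ratio near 1 in all cells joined lower and higher values. For MMP17 it was 1.12, 1.78, 1.22 and 1.13-fold, so in the second band MMP17 differed as much as MMP14.

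**Figure D5:**
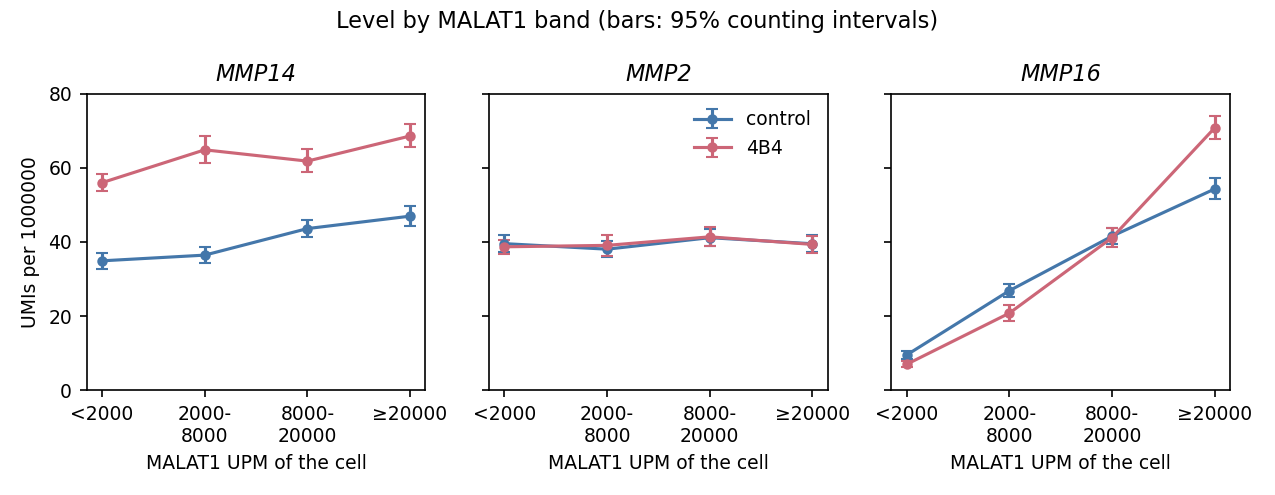
Levels of MMP14, MMP2 and MMP16 in UMIs per 1000000 in cells grouped by their MALAT1 level, from under 2000 to 20000 or more UMIs per 1000000, in the control and 4B4 libraries with 95% Poisson counting intervals. MMP16 climbs from 9.53 to 54.3 in control and from 7.03 to 70.7 in 4B4, MMP2 stays near 39, and the 4B4 points of MMP14 lie above the control points in each band.

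Clusters were made in each library alone, without the MMPs themselves. They carry numbers only, and clusters of different libraries are not matched. In control MMP14 was at 49.4 UPM (47.1 to 51.6) in cluster 3, which was led by LRRTM4, SGO1-AS1 and MALAT1. It was at 39.0 in cluster 5, 37.2 in cluster 2, 34.0 in cluster 4 and 32.9 in cluster 1, where the intervals of neighbours in this order overlapped. In 4B4 it was at 80.01 UPM (76.5 to 83.6) in cluster 4, which was led by AC092691.1, SGO1-AS1 and LRRTM4. It was at 59.4 in cluster 5, 58.7 in cluster 3, 55.7 in cluster 1 and 50.4 in cluster 2, and neighbours in this order again overlapped. The lowest 4B4 cluster, at 50.4 (46.4 to 54.7), was level with the highest control cluster.

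MMP2 varied less between clusters. In control it was between 40.9 and 43.9 UPM in clusters 1, 3 and 5, 35.7 in cluster 2, which was led by the replication genes BRIP1, DTL and CLSPN, and 31.1 in cluster 4, which was led by the mitotic genes CCNB1, PLK1 and ASPM. In 4B4 it was between 40.7 and 43.1 UPM in clusters 1, 3 and 4, 34.4 in cluster 2 with the mitotic genes MKI67 and ASPM, and 33.7 in cluster 5, led by S100A9. In the phase calls MMP2 was at 42.1 UPM in control G1 cells and 33.0 in G2M cells, and at 40.3 and 32.5 in 4B4. MMP16 ran from 6.12 UPM in control cluster 1 to 53.4 in cluster 3, and from 9.67 in 4B4 cluster 1 to 69.3 in cluster 4.

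Likeness was ranked by the lower of a gene's correlations in the 2 libraries, so a gene may lie closer in 1 library alone. By that rule the genes most like MMP14 across cells were MAP4K4 (a kinase), SERPINI1 (a serine protease inhibitor), ITGA1 (a collagen-binding integrin subunit), GOLIM4 (a Golgi membrane protein) and NRP1 (a semaphorin and growth factor co-receptor). Their Pearson r ran from 0.13 to 0.17 in 3099 control cells and from 0.13 to 0.22 in 1311 4B4 cells, where the middle 95% of 6200 genes ran from -0.083 to 0.087 and from -0.072 to 0.095. For MMP2 they were B2M, H3F3A, SRP14, HTRA1 and HLA-B, with r of 0.079 to 0.097 in control and 0.081 to 0.097 in 4B4. The highest r of any gene with MMP2 was 0.12 in control alone and 0.16 in 4B4 alone. Cells of a library share its preparation and all were at equal depth. Correlations of this size in sparse counts are no finding, and the genes are named only as the nearest in rank by this rule.

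Of 7 MMP inhibitors 3 were measured, with a median log2 ratio of 0.16. Of them 1 was called higher and 0 lower, against 2.10% and 5.82% of all measured genes. TIMP1, a secreted inhibitor of many MMPs but a weak one of MMP14, was at 1861 UPM in control and 4176 in 4B4, a 2.24-fold ratio (log2 1.17, 1.16 to 1.17). TIMP2 was at 115.6 and 129.3 UPM (log2 0.16). RECK, a membrane-anchored inhibitor, was at 17.8 and 15.2 UPM (log2 -0.23). TIMP3 had 16 and 24 UMIs, at 0.13 and 0.21 UPM.

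Of 13 activators and surface partners 11 were measured, with a median of -0.099. Of them 1 was called higher and 2 lower, against 2.10% and 5.82% of all measured genes. FURIN, the convertase that removes the MMP14 propeptide, was at 26.1 UPM in control and 41.6 in 4B4, 1.59-fold (log2 0.67, 0.61 to 0.74). The plasminogen activators were called lower. PLAU was at 201.8 and 100.3 UPM (log2 -1.01) and PLAT at 104.1 and 49.2 (log2 -1.08). BSG, a surface glycoprotein known to induce MMPs, was at 406.4 and 495.1 UPM (log2 0.28).

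Of 28 genes of MMP14 traffic and of invadopodia, the matrix-cutting protrusions, 27 were measured, with a median of 0.073. Of them 0 were called higher and 1 lower, against 2.10% and 5.82% of all measured genes. The lower one was CAV1, the caveolae protein, at 121.4 and 52.2 UPM (log2 -1.22). The invadopodia scaffold CTTN was at 102.9 and 134.1 UPM (log2 0.38) and the adaptor SH3PXD2A at 17.5 and 19.2 (log2 0.13).

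All 25 transcription factors listed for MMP promoters were measured, with a median of 0.030. Of them 3 were called higher and 2 lower, against 2.10% and 5.82% of all measured genes. The mesenchymal factors SNAI1 (5.68 and 9.48 UPM, log2 0.74) and TWIST1 (29.3 and 47.6 UPM, log2 0.70) were called higher, as was CEBPB (163.9 and 253.8 UPM, log2 0.63). FOSL1, an AP-1 subunit, was called lower at 91.2 and 40.01 UPM (log2 -1.19), as was ETS2 (log2 -0.59), named here outside the rule for named genes. ETS1 was at 42.2 and 33.5 UPM (log2 -0.33) and SP1 at 14.7 and 14.5 (log2 -0.022).

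Of 18 matrix and surface substrates 13 were measured, with a median of 0.050. Of them 3 were called higher and 2 lower, against 2.10% and 5.82% of all measured genes. SPP1, or osteopontin, was at 51.2 and 158.3 UPM (log2 1.63) and FN1, or fibronectin, at 680.6 and 1185 (log2 0.80). TGFB1 was the third (log2 0.64), named outside the rule. CCN2, a matricellular protein, was at 68.2 and 32.9 UPM (log2 -1.05). The lists were assembled with earlier results of these data known, so their counts are descriptions.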

How the data were processed

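Single-cell RNA was measured in 2 HT1080 samples with the 10x Genomics 3′ kit. Per the file headers, the values deposited are UMI counts from the authors' run of Cell Ranger 7.1.0, with no normalization. GRCh38 and Seurat 5.0.1 are named in the submitters' processing notes, the latter without its role. The gene annotation is not given in the sources used here. The members and the gene lists were chosen with earlier results of these data known.

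Barcodes were kept when they had 1000 or more genes and no more than 20% mitochondrial UMIs: 3402 of 3642 control and 1385 of 1759 4B4 barcodes. Counts were summed over cells and divided by the library total. Cells were thinned without replacement to 17000 UMIs for shares, spread and joint detection. Phases and Leiden clusters (resolution 0.5, per library, without the members) came from scanpy 1.11.5. No doublet caller was run, because pairs of cells of 1 line look alike, and an alternative left out the 5% of cells with the most UMIs. The call rule was tested on simulated counts with counting error alone, so that test says nothing about the spread between cultures. TMM factors came from edgeR 4.0.16. Gene positions are those of GENCODE release 29, joined by gene ID, and promoter bases are RefSeq's. Besides the members, the named genes were the called genes of each list (the 4 largest ratios where more were called), a fixed set (TIMP1, TIMP2, TIMP3, RECK, FURIN, BSG, SH3PXD2A, CTTN, ETS1 and SP1), and the 5 genes most like MMP14 and MMP2. Genes leading a cluster, MALAT1 and overlapping genes were named after their values were seen. A called gene of the substrate list is counted but not reported here by name.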

Additional observations from a re-analysis of the deposited data

How the results depend on the processing

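No paired analysis was possible because each group is 1 library, and for the same reason no replicate could be left out. The MMP14 log2 ratio of 0.61 kept its sign under all 12 alternatives (0.54 to 0.68) and its call under 10. It moved beyond its counting interval to 0.68 when cells needed 2000 genes and no more than 10% mitochondrial UMIs and to 0.54 in G1 cells, and the count of members called higher fell from 1 to 0 in G1 cells, with a total without mitochondrial genes and at a 2-fold bound. The MMP2 ratio moved to 0.071 in thinned cells, -0.064 in G1 cells and 0.13 in cells of 20000 to 60000 UMIs; the cause was not tested. The count of 0 members called lower was 0 in all 10 alternatives. Joint detection of MMP14 and MMP2 over the product ran from 1.05 to 1.09 in control and from 0.98 to 1.07 in 4B4 over 5 alternatives each. MALAT1 bands weighing the same (MMP14 0.63), phases weighing the same (0.62) and leaving out the deepest 5% of cells (0.59) were chosen after seeing the data. Weighing each cell, MALAT1 band or phase the same gave no interval, so calls under those alternatives rest on size alone. Members under 5 UPM, with 118 to 439 UMIs a library, are limited by depth.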

Other observations

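ID3 and ID1, inhibitors of helix-loop-helix transcription factors, were among the genes with the most negative correlation with MMP14 across cells at equal depth, and were singled out after their values were seen. Pearson's r of MMP14 with ID3 was -0.13 in 3099 control cells and -0.22 in 1311 4B4 cells, and with ID1 it was -0.12 and -0.18. Of 6200 genes, 6197 and 6199 had a higher r with MMP14 than ID3 had. Across the same cells the genes nearest to MMP16, ranked by the lower r of the 2 libraries, were PLCB1, MAML3, PARD3, ZBTB20 and PTPRG, with r from 0.26 to 0.30 in control and from 0.35 to 0.42 in 4B4. MMP16 and MALAT1 had an r of 0.26 and 0.40. These are correlations across cells of 1 library each, given as a description.

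Barcodes left out by the cell filter held 164 UMIs of the 9 MMPs in 240 control barcodes and 553 UMIs in 374 4B4 barcodes. Of all UMIs, 127218114 of 128375944 in control and 116451080 of 119566832 in 4B4 were kept. More UMIs of all genes were thus left out in 4B4, and the MMP counts are not levels.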
